A study of Mus musculus with 4 samples.

Results

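Dividing enterocyte progenitors were taken here as crypt cells that carried transcripts of cell division and of absorptive enterocytes at the same time. They made up 591 of 29731 cells kept, 203 and 176 in the libraries 0D-1 and 0D-2 and 137 and 75 in 2D-1 and 2D-2. Below, 4 values in a row follow the libraries in the order 0D-1, 0D-2, then 2D-1, 2D-2. Each gene's log-scaled level was turned into a z-score over all cells kept (at least 500 genes and at most 20% mitochondrial transcripts), and 7 sets of 3 genes were averaged. A cell was a member with a mean of at least 0.5 for both the cycling set (Mki67, Top2a, Cenpf) and the enterocyte set (Fabp1, Sis, Apoa1). The means of the stem (Lgr5, Olfm4, Ascl2), Paneth (Lyz1, Defa24, Ang4), goblet (Muc2, Tff3, Clca1), enteroendocrine (Chga, Chgb, Neurod1) and tuft (Dclk1, Trpm5, Avil) sets had to stay below 0.5. The members were thus chosen by the measured levels of these 21 genes, which are given below as a description only.

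The cells came from epithelium of mouse small intestine, enriched for crypts with EDTA, and were sequenced with a 10x Genomics 3′ kit, which reads the polyadenylated ends of transcripts. The design sets mice before sleep deprivation against mice after it. The labels give 2 libraries of the group 0D and 2 of the group 2D. They are read here as before and after, although the labels do not spell out the letter D or name a strain, an age, a sex or the length and method of the deprivation. No genotype, allele or drug is named for either group. The labels do not state that each library is a different animal. Every p-value below therefore sets a difference against variation among these 4 libraries only, and that variation may be technical.

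In the intestinal crypt, stem cells give rise to transit-amplifying cells that divide several times while moving upward. Cells that become absorptive enterocytes switch on digestive enzymes, nutrient transporters and lipid-handling proteins and leave the cell cycle near the crypt mouth. Cells with both programmes are commonly placed where division and absorptive maturation meet. Secretory relatives in the same epithelium include Paneth cells, which release antimicrobial peptides at the crypt base, goblet cells, which make mucus, and hormone-releasing enteroendocrine cells.

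Genes that the rule did not use were checked first. A list of 30 other enterocyte genes, among them the disaccharidases Mgam and Treh, the peptidase Anpep and the fatty acid binder Fabp2, summed to 6347, 6599.6, 6347 and 5766 CPM (transcript counts of the summed cells, scaled to the same total in every library) in the members of the 4 libraries. That was 55.8, 58.1, 64.7 and 50.1% of the level in 2582 non-dividing enterocytes, which had only the enterocyte set. In 2973 dividing cells without lineage markers, which had only the cycling set, it was 26.3, 25.7, 29.3 and 22.5%. A list of 35 other genes of G2 and mitosis stood at 102, 107, 98.4 and 96.8% of the level in those dividing cells, against 10.3, 9.95, 12 and 9.05% in the non-dividing enterocytes. The members were thus close to the other dividing cells in their mitotic transcripts and between the 2 classes in their enterocyte transcripts. These figures describe the label and are no test, since the rule chose cells by related genes.

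S phase transcripts were at lower levels in the members than in the other dividing cells. A list of 36 S phase genes summed to 1480.2, 1393, 1179 and 1281 CPM in the members, to 2362, 2402, 1948 and 2098 CPM in the dividing cells without lineage markers and to 409, 389, 424 and 409 CPM in the non-dividing enterocytes. Within the members the level spread widely from cell to cell. In 0D-1 the middle 50% of cells lay between 797 and 2092 CPM, and in 2D-1 between 755 and 1387 CPM. Of the markers of other cells, blood and stroma genes summed to 2.57, 4.63, 2.97 and 3.67 CPM and tuft genes to 14.3, 14.6, 13.1 and 12.8 CPM over the whole lists. Of the 18 blood and stroma genes, 12 were at 0 in the members of all 4 libraries. Goblet genes summed to 2021, 2074, 999.6 and 3143 CPM, so the libraries spread widely, with 2D-1 the lowest and 2D-2 the highest. Enteroendocrine genes summed to 20.1, 22.3, 196 and 159 CPM, higher in both 2D libraries. In 2D-1, 521 of 555 Gip transcripts and 145 of 151 Sst transcripts each came from 1 cell, as did 197 of 205 Cck transcripts in 2D-2. The part of these cell types in the results below was not tested. Stem cell genes outside the rule summed to 296, 252, 228 and 318 CPM, below the 834, 811, 705 and 780.1 CPM of the dividing cells without lineage markers.

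**Figure D1:**
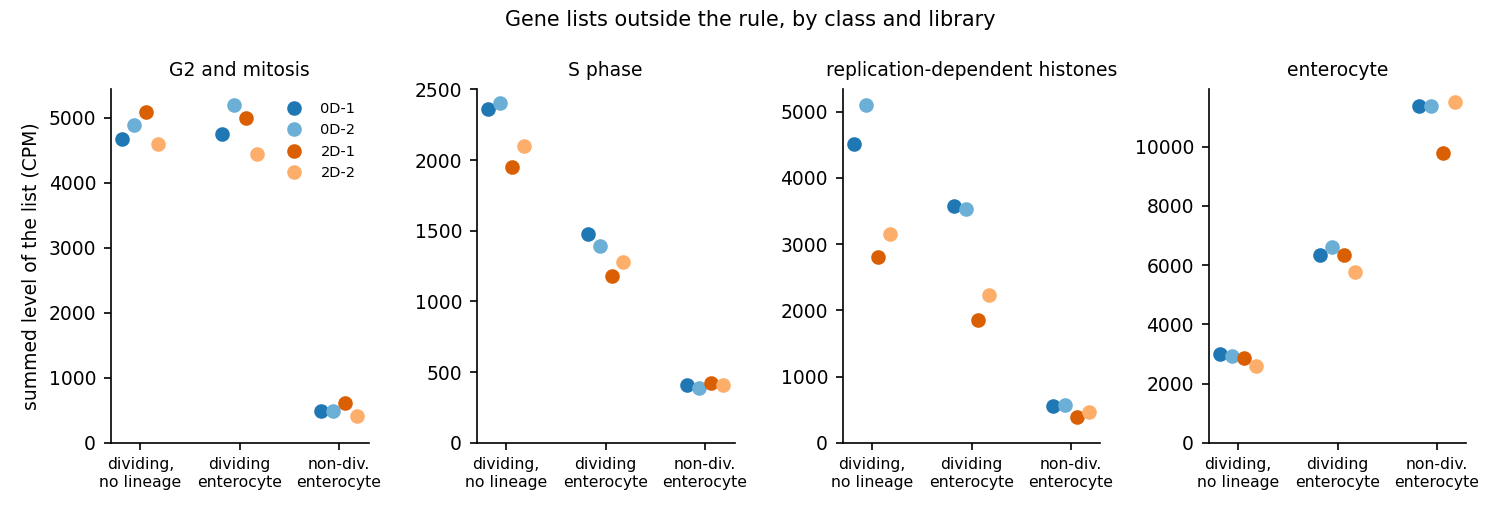
Summed level in CPM (vertical axes, each from 0) of 4 gene lists in dividing cells without lineage markers, dividing enterocyte progenitors and non-dividing enterocytes (horizontal axis), with 1 point for each of the 4 libraries. The progenitors match the dividing cells in G2 and mitosis genes, lie between the other classes in S phase and enterocyte genes, and show lower histone transcripts in both 2D libraries (3575, 3535, 1858 and 2230.2 CPM).

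Alpi, the brush border alkaline phosphatase, was followed in single cells as a description, since the rule chose members by other enterocyte genes. At least 1 transcript was counted in 47.3%, 52.8%, 59.1% and 45.3% of members and in 50.2%, 58.97%, 53.9% and 50% of non-dividing enterocytes. In dividing cells without lineage markers it was 9.30%, 11.9%, 11.5% and 5.28%. Cells with only the Paneth set, a class outside the absorptive lineage, gave 2.05%, 1.099%, 2.01% and 1.11%, at a median depth of 18120 transcripts against 22132 in the members. The part of free RNA in the Alpi values was not tested. With each cell thinned to 3000 transcripts the shares were 14.5%, 11.5%, 10.2% and 17.8% in the members and 0.535%, 0%, 0.867% and 0.281% in the Paneth-set cells. The thinned shares were 19.0%, 23.1%, 14.2% and 19.4% in non-dividing enterocytes and 2.31%, 2.50%, 2.12% and 0.971% in dividing cells without lineage markers. Both ways, the members lay above the Paneth-set cells and those dividing cells in every library. After thinning they lay below the non-dividing enterocytes in every library.

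The rule's own genes ran as follows in the summed members. Mki67, a nuclear protein of cycling cells, was at 691, 679, 622 and 625 CPM, Top2a, the topoisomerase that untangles replicated DNA, at 680.4, 682, 556 and 555 CPM and Cenpf, a kinetochore protein, at 294, 308, 286 and 285 CPM. Fabp1, a fatty acid binding protein, was at 1063, 800.1, 717 and 756 CPM, Sis, sucrase-isomaltase, at 204, 278, 317 and 190.1 CPM and Apoa1, an apolipoprotein, at 91.2, 103, 85.6 and 68.5 CPM. Tff3 of goblet cells was at 723, 533, 326 and 955 CPM, the highest of the goblet set, and the 3 tuft genes did not pass 2 CPM in any library. The median mean z-score of the members was 1.52 for the cycling set and 0.869 for the enterocyte set, so the enterocyte cut lay nearer to the cells. The 94 members within 0.1 above the enterocyte cut held 394 CPM of Fabp1 and 125 CPM of Sis, and the 80 cells within 0.1 below it 364 and 94.97 CPM. At the cycling cut, 26 members just inside held 356 CPM of Mki67 and 122 CPM of Top2a, and 36 cells just outside 254 and 175 CPM. The members are thus a range cut from a continuum, and 235 of 591 (39.8%) had an enterocyte mean of at least 1.

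Members were deep cells. Their median count was 22132 transcripts, against 17439 in dividing cells without lineage markers, 14317.5 in non-dividing enterocytes and 11533 in all cells kept. Droplets that caught 2 cells could carry both programmes. The median doublet score was 0.0524 in members, 0.0509 in the dividing cells without lineage markers and 0.0308 in the non-dividing enterocytes. Scrublet's automatic threshold marked 38 members (6.43%), against 5.09% of all cells kept. It marked 4.24% of those dividing cells and 2.36% of those enterocytes. In 0D-1 it marked 11.3% of members and 8.23% of all cells kept, and in 2D-2 no cell at all, so it had not worked there. The 8% of all cells with the highest scores took in 8.29% of members, 5.38% of those dividing cells and 2.87% of those enterocytes. The part of doublets among the members was not tested. Leaving out the automatic calls, or the 8% of all cells with the highest scores, kept all 17 genes called below (15 outside the rule and the rule genes Lyz1 and Defa24). The 75 members above their library's 95th depth percentile were 12.7% of members, against 5.01% of all cells kept. Leaving out these 75 kept 16 of the 17 genes. No member barcode occurred in more than 1 library, while 20 to 32 barcodes were shared between pairs of whole libraries. Beyond the members' depth, 2D-1 stood apart through interferon-induced genes, described below.

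The members were a smaller share of the cells in both 2D libraries. They were 2.68% of cells kept in 0D-1 (95% Clopper-Pearson interval 2.32 to 3.06%), 2.47% in 0D-2 (2.12 to 2.85%), 1.95% in 2D-1 (1.64 to 2.30%) and 0.939% in 2D-2 (0.739 to 1.18%). The group means were 2.57% ± 0.147 (SD, n = 2) and 1.44% ± 0.715 (SD, n = 2), a difference of -1.13 percentage points. The two-sided exact permutation test gave p = 0.33, the smallest that 2 against 2 libraries can give. 2D-2 was the lowest, and the 0D and 2D shares did not overlap, although the intervals of 0D-2 and 2D-1 did; all intervals cover counting error only. Without 2D-2 the difference was -0.622 points.

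Dividing cells and enterocytes as wholes were also smaller shares of the 2D libraries. Cells with the cycling set were 27.3%, 24.7%, 21.9% and 15.3% of cells in the 4 libraries, and cells with the enterocyte set 18.6%, 17.9%, 15.6% and 10.2%. Members were 9.80%, 9.98%, 8.90% and 6.13% of the cycling-set cells, a difference in means of -2.38 points (exact permutation p = 0.33). They were 14.4%, 13.8%, 12.5% and 9.17% of the enterocyte-set cells, a difference of -3.24 points (exact permutation p = 0.33). Without 2D-2 these differences were -0.996 and -1.57 points, and with any 1 library left out they ran from -3.76 to -0.996 and from -4.92 to -1.57. Cells with both sets numbered 238, 191, 167 and 98 before those with another set at 0.5 or more were dropped. That step dropped 35, 15, 30 and 23 of them. Without that step, 2D-1 did not lie below 0D-2 as a share of cycling-set or of enterocyte-set cells. The part of this step in the differences was not tested. The direction of the share differences depended on how the z-scores were made. Scored within each library, members were 1.87%, 1.89%, 2.05% and 1.73% of cells, and the difference was 0.00633 points (exact permutation p = 1). In that setting 2D-2 had 138 members, of which 74 were among its 75 members above. With every cell thinned to 3000 transcripts, which left out 411, 528, 645 and 1060 shallower cells, the shares were 1.88%, 1.57%, 1.63% and 0.606%, and 0D-2 and 2D-1 overlapped.

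**Figure D2:**
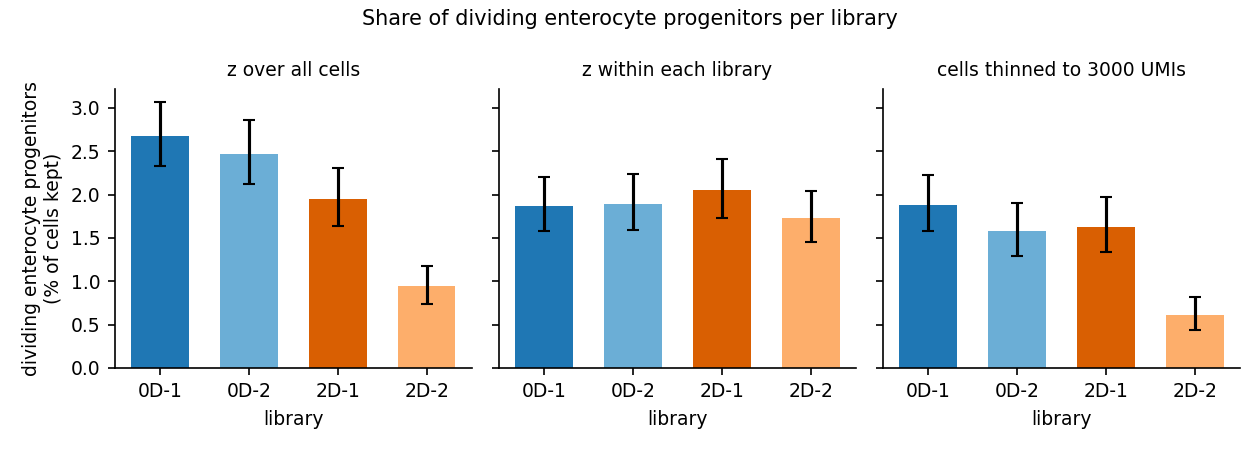
Share of dividing enterocyte progenitors among cells kept, in percent from 0 (vertical axis), in the 4 libraries (horizontal axis), with 95% Clopper-Pearson intervals; the panels score cells over all libraries, within each library, and after thinning to 3000 transcripts. The fall from 2.68% in 0D-1 to 0.939% in 2D-2 is absent when cells are scored within libraries (1.87% and 1.73%).

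Transcripts were then summed over the members of each library, 4670841, 4535402, 4039777 and 1635748 in the 4 libraries, and 2D was compared with 0D. In these sums, fewer cells expressing a gene and less RNA per cell cannot be told apart. edgeR's quasi-likelihood test with Benjamini-Hochberg adjustment called 17 of 10100 genes (0.168%), 9 higher in 2D (0.0891%) and 8 lower (0.0792%), at an adjusted p under 0.05. Of the 17, 15 lie outside the rule. The calls of the rule genes Lyz1 and Defa24 are description only, since their levels helped to choose the members. Of these, 7 of the 8 lower genes encode histones and the other is the alcohol dehydrogenase Adh6a. Among the 9 higher genes are the antibacterial lectin Reg3b, the signalling adaptor Tifa, the cold-inducible RNA-binding protein Rbm3 and 4 genes of the alpha-defensin cluster, beside Lyz1 and Defa24. An unadjusted p under 0.05 was reached by 859 genes (8.5%). Counts of list genes below are to be read beside this share, with 49.6% of all genes above 0 and 50.4% below 0. The 0D libraries were the closest pair (root mean square log2 difference over genes 0.279), and the 2D libraries the farthest apart (0.464).

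**Figure D3:**
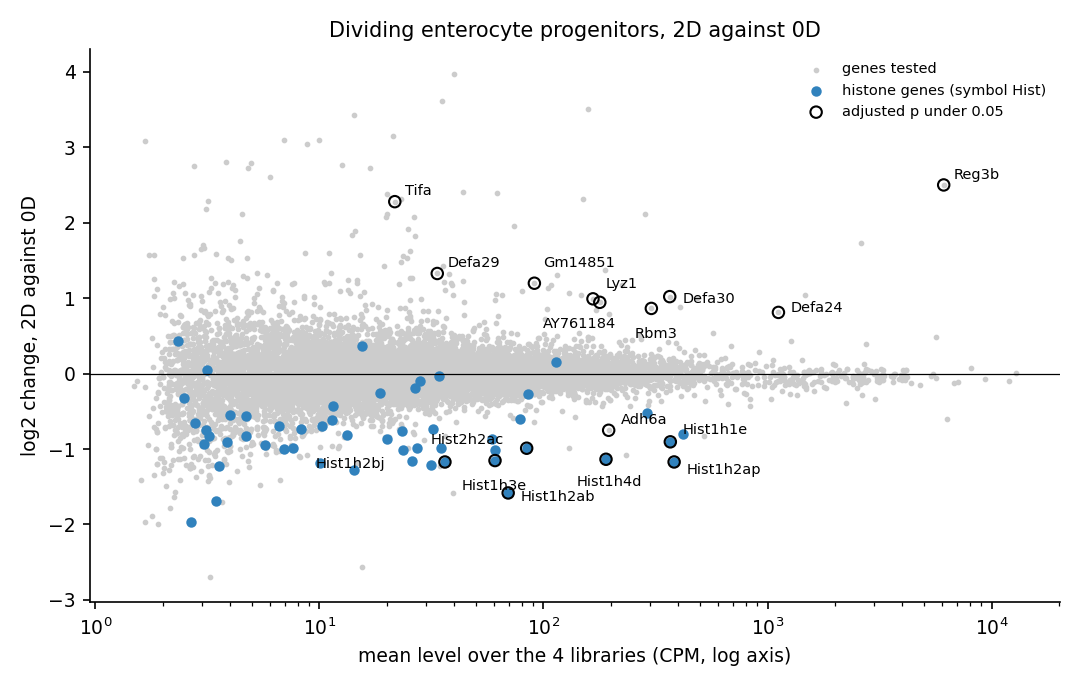
Fitted log2 change of 2D against 0D (vertical axis) against the mean level over the 4 libraries in CPM (horizontal axis, log scale) for 10100 genes in the summed progenitors; blue points are genes with Hist symbols and black rings mark the 17 genes called. Histone genes lie below 0 at nearly all levels, and Reg3b at 2.5 is the highest ring.

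Replication-dependent histones package newly copied DNA. Their genes are transcribed together in S phase, mostly from a cluster on chromosome 13. In the members, 52 of 67 listed histone genes were tested, and 7 fell (7 of 52, against 0.0792% of all genes). All 7 are single-exon protein-coding genes in GENCODE M21 (build GRCm38, the same as mm10), 6 of them on chromosome 13 between 21833026 and 23751598 and Hist2h2ac on chromosome 3. The whole list summed to 3575, 3535, 1858 and 2230.2 CPM, a 2D to 0D ratio of 0.575. Both 2D libraries were below both 0D libraries, with no overlap.

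Hist1h2ap, an H2A gene at chr13:21833026-21833507, was at 541 and 520.1 CPM in 0D and at 229 and 241 CPM in 2D, a log2 change of -1.17 (SE 0.10) with adjusted p = 0.00474 (edgeR). Hist1h2ab, another H2A gene at chr13:23751126-23751598, was at 99.98 and 106 CPM in 0D and at 30.2 and 41.6 CPM in 2D, a log2 change of -1.58 (SE 0.15) with adjusted p = 0.00474 (edgeR). Hist1h1e, a linker histone at chr13:23620629-23622558, was at 484 and 475 CPM and 220.3 and 294 CPM, a change of -0.90 (SE 0.14) with adjusted p = 0.0449 (edgeR). In each of these genes both 2D libraries were below both 0D libraries. The core histone genes Hist2h2ac, Hist1h3e, Hist1h2bj and Hist1h4d fell by 0.99, 1.15, 1.17 and 1.14 on the log2 scale (adjusted p from 0.0281 to 0.0302, edgeR). Hist1h4d, for example, was at 257, 262, 97.8 and 143 CPM in the 4 libraries.

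The direction was the same across the 5 kinds of histone. Fitted changes lay above 0 for 49.6% of all genes tested and below 0 for 50.4%. Among histones the change was below 0 for 5 of 5 H1 genes, 13 of 14 H2A genes, 12 of 14 H2B genes, 9 of 9 H3 genes and 9 of 10 H4 genes, 48 of 52 in all. Both 2D libraries were below both 0D libraries for 40 of 52, against 20.4% of all genes. The list median was -0.82 against -0.00202 for all genes tested, and between -0.997 and -0.69 with any library left out. The 4 genes above 0 were Hist1h4j, Hist1h2bc, Hist3h2a and Hist1h2bl, named after their values were seen, with changes from 0.05 to 0.43 and p from 0.127 to 0.940 (edgeR, unadjusted). Many histone genes are near-identical copies, so reads can be split between them, and their values as single genes are uncertain.

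Histone transcripts were at lower levels in the 2D libraries of the other classes too. The list was at 4515, 5106, 2808 and 3147 CPM in dividing cells without lineage markers and at 549, 564, 382 and 461 CPM in non-dividing enterocytes. The ratio of 2D to 0D was 0.575 in the members, 0.619 in those dividing cells and 0.758 in the non-dividing enterocytes. The test of the difference of change called no histone gene against either class (edgeR, class-by-group term), where 0.0898% and 0.105% of all genes were called.

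Sequence shows what the called histone genes share. Replication-dependent histone messages normally end in a stem-loop in place of a poly(A) tail, and a 3′ poly(A) kit therefore captures mainly the polyadenylated fraction. The stem-loop pattern, arms GGCNCT and AGNGCC around the loop TNTN with N for any base, was searched on the transcript strand. It occurred in GENCODE M21 transcripts of 7 of 7 called histone genes, of 34 of 52 tested histone genes and of 38 of 10094 tested genes with a transcript (0.376%). A stem-loop from an H2A, an H3 and an H4 gene is shown, with the pairing arms in capitals and the loop in lower case.
Hist1h2ab: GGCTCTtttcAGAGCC
Hist1h3e: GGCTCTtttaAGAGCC
Hist1h4d: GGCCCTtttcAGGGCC
Whether the captured fraction, rather than the amount of histone message, moved with the groups was not tested.

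The promoters of histone genes were read from RefSeq (GRCm38.p6), 250 bases before to 50 after the start, matched for 47 of the 52 tested genes by symbol or synonym at the same locus. The TATA box letters TATAAA occurred on either strand in 26 of 47 (55.3%), and in 4 of 7 called genes, against 15.7% of 27025 genes with a promoter. The CCAAT letters occurred on either strand in 41 of 47 (87.2%), and in 7 of 7 called genes, against 41.1%. The 150 bases before the start are shown for the H2A gene with the largest called fall (chr13:23750938-23751087, plus strand) and for the called H4 gene (chr13:23581418-23581567, plus strand), with both motifs in capitals.
Hist1h2ab promoter: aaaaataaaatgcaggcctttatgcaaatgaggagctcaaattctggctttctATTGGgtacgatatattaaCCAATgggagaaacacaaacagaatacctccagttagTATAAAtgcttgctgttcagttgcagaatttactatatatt
Hist1h4d promoter: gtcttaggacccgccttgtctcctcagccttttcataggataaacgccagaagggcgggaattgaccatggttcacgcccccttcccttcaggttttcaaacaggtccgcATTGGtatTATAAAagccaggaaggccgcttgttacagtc
The H2A promoter holds 3 matches and the H4 promoter 2, with ATTGG as CCAAT on the other strand. A match is a description of letters and no evidence of binding.

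Other S phase genes had fitted changes mostly below 0. Of 36 tested, 0 were called and 9 had an unadjusted p under 0.05 (edgeR), 6 were above 0, and in 17 both 2D libraries were below both 0D libraries, against 20.4% of all genes. The list median was -0.22 and lay between -0.31 and -0.10 with any library left out. Uhrf1, which keeps DNA methylation through replication, was at 35.8, 37.3, 20.3 and 14.7 CPM, a change of -0.99 (SE 0.19) with adjusted p = 0.105 (edgeR). Rrm1, the large subunit of ribonucleotide reductase, was at 85.6, 81.4, 51.5 and 65.4 CPM, a change of -0.55 (SE 0.13) with adjusted p = 0.27 (edgeR). For Uhrf1 and Rrm1 the 2 groups did not overlap, and neither passed. Pcna, the sliding clamp of DNA polymerase, Fen1, the flap endonuclease, and Mcm7 and Cdc45 of the replicative helicase had changes of -0.32, -0.40, -0.38 and -0.55.

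No mitotic gene was called. The 35 genes of G2 and mitosis had a median change of -0.07, a range of -0.38 to 0.32 and 1 gene with an unadjusted p under 0.05 (edgeR). The rule held the members of every library to the same cut on related cycling genes. This list therefore cannot show whether the mitotic programme changed. Aurkb, the kinase of the chromosomal passenger complex, was at 68.9, 68.1, 50.0028 and 56.2 CPM, a change of -0.38 (SE 0.12) with adjusted p = 0.403 (edgeR). Pttg1, the securin that guards sister chromatids, was at 33.2, 31.1, 41.8 and 37.3 CPM, a change of 0.32 (SE 0.15) with adjusted p = 0.599 (edgeR). The spindle proteins Nusap1 and Prc1 had changes of -0.21 and -0.19.

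**Figure D4:**
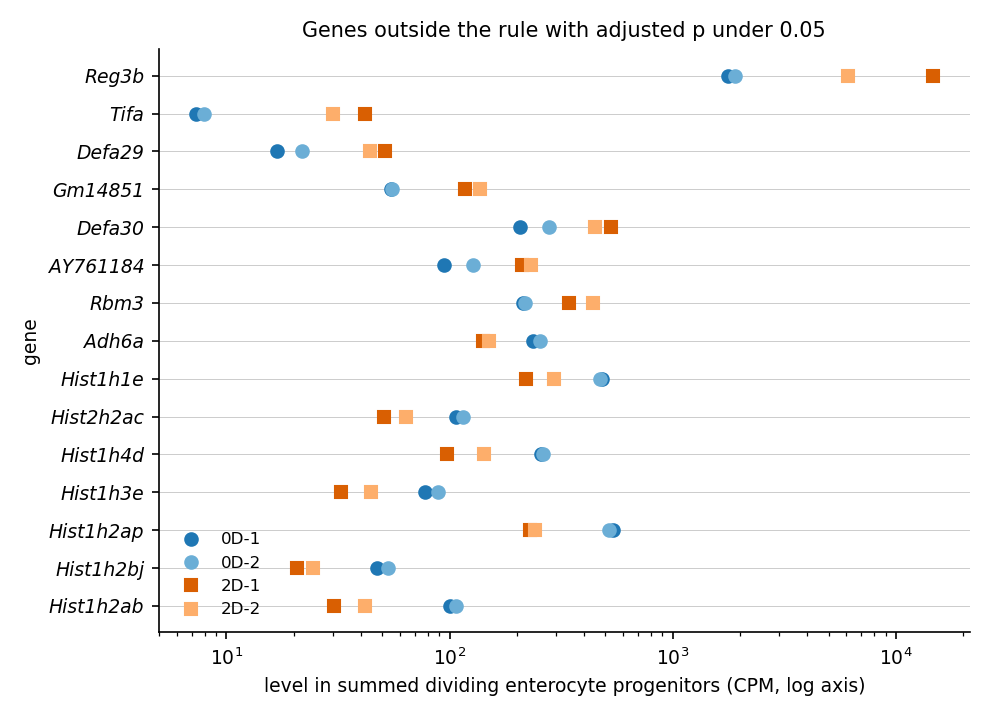
Level in CPM (horizontal axis, log scale) of the 15 called genes outside the rule (vertical axis) in the summed progenitors, circles for 0D and squares for 2D libraries. In every gene the 2D squares lie to one side of the 0D circles, for Hist1h2ab at 30.2 and 41.6 against 99.98 and 106 CPM and for Reg3b at 14673 and 6094 against 1769 and 1910.1 CPM.

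No gene of the enterocyte list was called. The rule held the members of every library to the same cut on related enterocyte genes. This list therefore cannot show whether the absorptive programme changed. Of 30 enterocyte genes outside the rule 27 were tested, and 15 were above 0 (49.6% of all genes were). Of the 27, 7 had an unadjusted p under 0.05 (edgeR), against 8.5% of all genes. The median was 0.03, or -0.11 without 2D-1 and 0.08 without 2D-2. Both 2D libraries were above both 0D libraries in 4 and below them in 6, where these shares were 17.8% and 20.4% of all genes. Mgam, maltase-glucoamylase, was at 129.5, 136, 214 and 152 CPM, a change of 0.48 (SE 0.15) with adjusted p = 0.378 (edgeR), and 2D-1 was the highest. The aminopeptidase Enpep was at 77.1, 83.3, 130.2 and 86.2 CPM and the keratin Krt20, found in maturing villus cells, at 96.8, 123, 154 and 126 CPM, with adjusted p = 0.462 and 0.495 (edgeR). Apoa4, an apolipoprotein of lipid absorption, was at 22.9, 29.5, 14.6 and 14.7 CPM, with adjusted p = 0.276 (edgeR). The nucleotide enzyme Gda and the protease subunit Mep1b had changes of 0.56 and 0.33.

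Regulators of the enterocyte fate were likewise without calls. Of 24 listed transcription factors and signals 23 were tested, 9 were above 0, 2 had an unadjusted p under 0.05 (edgeR) and the median was -0.05. Cdx2, which gives intestinal identity, was at 149, 148, 125 and 127 CPM, a change of -0.24 (SE 0.10) with adjusted p = 0.564 (edgeR). Creb3l3, a factor of lipid metabolism, was at 47.5, 29.5, 23.8 and 15.9 CPM, a change of -0.88 (SE 0.27) with adjusted p = 0.379 (edgeR). Gata5 and the sterol receptor Nr1h3 had changes of -0.41 and -0.30.

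Fitted changes of retinoid and alcohol metabolism genes lay below 0 throughout the tested list. The intestine turns dietary vitamin A into retinal and retinoic acid, and alcohol dehydrogenases and retinol-binding proteins take part. All 8 tested genes of 14 had a change below 0 (50.4% of all genes did), with a median of -0.68 (between -0.78 and -0.48 with any library left out). Of the 8, 1 was called, where 0.0792% of all genes were called lower. The summed list's 2D to 0D ratio was 0.704 in the members, 0.798 in dividing cells without lineage markers and 0.671 in non-dividing enterocytes. Adh6a, an alcohol dehydrogenase gene at chr3:138313286-138331134, was at 237 and 254 CPM in 0D and at 141 and 149.8 CPM in 2D, a log2 change of -0.75 (SE 0.10) with adjusted p = 0.0302 (edgeR). Its groups did not overlap. The call was lost with no filter on low counts, with both cuts at 0.75 and without very deep members (adjusted p up to 0.136). Adh1, another alcohol dehydrogenase, was at 128, 93.3, 67.6 and 74.6 CPM, Dhrs3, a retinal reductase, at 41.96, 39.7, 26.5 and 28.1 CPM and Rbp2, the cellular retinol carrier, at 782, 742, 630.5 and 518 CPM. Their changes were -0.65, -0.59 and -0.40, with adjusted p = 0.276, 0.29 and 0.344 (edgeR).

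Among antimicrobial genes of enterocytes 1 rose. Reg3b, a lectin that kills bacteria, at chr6:78370657-78373466, was at 1769 and 1910.1 CPM in 0D and at 14673 and 6094 CPM in 2D, a log2 change of 2.5 (SE 0.31) with adjusted p = 0.0275 (edgeR). Both 2D libraries were high, 2D-1 the most, and with 2D-1 left out the change was 1.74. At least 1 Reg3b transcript was counted in 89.2%, 85.8%, 100% and 97.3% of members in the 4 libraries (median depth 22132 transcripts). Cell classes outside the absorptive lineage also held it, namely 78.8%, 75.4%, 97.3% and 76.1% of cells with only the Paneth set (18120) and 35.1%, 39.6%, 76.2% and 40.8% of those with only the tuft set (2749). In the tuft-set cells its level was again highest in 2D-1, at 7216 CPM, and at most 866 CPM in the other libraries. The part of free RNA in the Reg3b values was not tested. Its sister gene Reg3g was at 1002, 1413, 5357 and 2633 CPM, a change of 1.73 (SE 0.28) with adjusted p = 0.0607 (edgeR). Duox2 and its maturation factor Duoxa2, which make hydrogen peroxide at the surface, were at 13.9, 11.7, 44.6 and 22.01 CPM and 5.14, 7.94, 29.7 and 12.8 CPM, with adjusted p = 0.126 for each (edgeR). In the list of 11 tested antimicrobial and Reg genes, 10 were above 0 and 1 was called. Of all genes, 49.6% were above 0 and 0.0891% were called higher.

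Tifa, an adaptor that passes on the sensing of bacterial sugars to NF-kB, was at 7.28 and 7.94 CPM in 0D and at 41.6 and 29.96 CPM in 2D, a log2 change of 2.28 (SE 0.22) with adjusted p = 0.00474 (edgeR). It lies at chr3:127789805-127832164. Tifa, Gm14851, Hist1h2ap and Hist1h2ab were the called genes outside the rule that stayed called under all 10 alternatives other than leaving out a library. Without either 0D library no gene at all was called, with 358 and 434 at an unadjusted p under 0.05 (edgeR).

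Change in Reg3b and Tifa was larger in the members than in dividing cells without lineage markers. Reg3b was at 1438, 1207, 7790.2 and 2698 CPM in those cells, and the difference of the log2 changes was 0.57 (SE 0.08, adjusted p = 0.00103) by edgeR's class-by-group term. Tifa was at 27.1, 25.8, 57.3 and 50.3 CPM there, and the difference was 1.26 (SE 0.21, adjusted p = 0.00725). Tifa was lower in the members than in the other dividing cells in all 4 libraries. Against non-dividing enterocytes, where Reg3b was at 7627, 6063, 23959.6 and 13415 CPM, its difference was 1.00 (SE 0.12, adjusted p = 0.00285) (edgeR). Tifa was at 10.5, 8.72, 33.4 and 28.7 CPM in non-dividing enterocytes, and its difference there, 0.62 (SE 0.22, adjusted p = 0.538), did not pass (edgeR). None of the 3 called differences was called when cells were scored within libraries, with 0 genes called against the other dividing cells there (700 at an unadjusted p under 0.05). Against those cells they were also lost with both cuts at 0.75, for Tifa without 2D-1 (1.02) and for Reg3b without 2D-2 (0.45). Against non-dividing enterocytes the Reg3b difference was not called without 0D-1 (0.76).

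Reg1, a regenerating-family protein, moved differently in members and in mature cells. It was at 342, 269, 266 and 564 CPM in the members and at 1230.1, 1039, 391 and 838 CPM in the non-dividing enterocytes, where the 2D libraries were the lower ones. The difference of change was 1.36 (SE 0.06, adjusted p = 1.58e-08) by edgeR's class-by-group term. It stayed called under all 8 processing alternatives (1.20 to 1.72) and with each of the 4 libraries left out (1.32 to 1.40). Within the members Reg1 was not called, with adjusted p = 0.729 (edgeR), and its groups overlapped.

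Some transcripts of Paneth cells rose in the 2D members. Gm14851, Defa29, Defa30 and AY761184 lie in the alpha-defensin cluster of chromosome 8 between 21095074 and 21703645 and rose by edgeR's test. Gm14851 was at 54.8, 55.1, 117 and 137 CPM, a log2 change of 1.2 (SE 0.11) with adjusted p = 0.00474. Defa30 was at 208, 278, 529 and 449 CPM, a change of 1.02 (SE 0.14) with adjusted p = 0.0302 (edgeR). Defa29 and AY761184 changed by 1.33 and 0.99. The rule genes Lyz1 and Defa24, which had to stay low in members, were at 119, 125, 237 and 232 CPM and 719, 909.5, 1473 and 1372 CPM. The alpha-defensin genes among these are near-identical and can share reads.

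The members held very little of these transcripts beside Paneth cells. The list of 12 Paneth genes outside the rule summed to 587, 705, 1369.9 and 1117 CPM in members, 0.213, 0.272, 0.519 and 0.464% of the level in cells with only the Paneth set. All 9 tested genes of the list were above 0 (49.6% of all genes were), with a median of 1.02, and 1 was called (0.0891% of all genes were called higher). The list's 2D to 0D ratio was 1.92 in members, 1.904 in dividing cells without lineage markers and 2.104 in non-dividing enterocytes, against 0.944 in the Paneth-set cells. Paneth-set cells numbered 391, 455, 747 and 1174. Their part in the members' defensin values through free RNA was not tested. The intelectin Itln1, of Paneth and goblet cells, was at 129, 117, 189 and 254 CPM, with adjusted p = 0.0823 (edgeR).

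Rbm3, which binds RNA and is induced by mild cold, was at 212 and 217 CPM in 0D and at 345 and 438 CPM in 2D, a log2 change of 0.86 (SE 0.13) with adjusted p = 0.0376 (edgeR). It lies at chrX:8138975-8145880. It was also at 263, 281, 427 and 533 CPM in dividing cells without lineage markers and at 171, 178, 316 and 376 CPM in non-dividing enterocytes. The differences of change were 0.05 and -0.10 and were not called (edgeR adjusted p = 0.991 and 0.772). Cirbp, the other listed cold-inducible gene, had a change of -0.36.

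The named chaperones of the heat shock response were highest in 2D-2. Hsph1, Hspa8 and Dnaja1, which refold proteins together, were at 94.2, 96.1, 155 and 245 CPM, 1130.4, 794, 1685 and 2269 CPM and 294, 275, 425 and 627 CPM. Their changes were 1.05, 1.04 and 0.88, with adjusted p = 0.0828, 0.0828 and 0.104 (edgeR), so none passed. Of 13 tested genes 11 were above 0, and the median was 0.53, or 0.12 without 2D-2. For proteins of folding in the endoplasmic reticulum, 18 of 19 were above 0 with a median of 0.23 and 0 calls, with 6 at an unadjusted p under 0.05 (edgeR). Hspa5, its main chaperone, was at 547, 658, 728 and 825 CPM and Herpud1, of the degradation arm, at 48.2, 29.8, 67.6 and 100.3 CPM.

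Interferon-induced genes were high in 1 library. The list of 30 summed to 1131, 1131, 4412 and 1077 CPM in the members. All 27 tested genes were above 0 (49.6% of all genes were), with a median of 1.58, which was 0.00 without 2D-1. Of the 27, 0 were called and 26 had an unadjusted p under 0.05 (edgeR), against 8.5% of all genes. Usp18, which damps the receptor's signal, was at 1.499, 2.87, 25.99 and 4.89 CPM and Ifit3, an antiviral protein, at 2.14, 1.102, 19.1 and 5.502 CPM. Both were highest in 2D-1, with adjusted p = 0.143 and 0.0877 (edgeR). The same library was high in the other classes, for example 1124, 1176, 5206 and 1104 CPM in non-dividing enterocytes. The pattern of an interferon response element, GAAA and GAAA with 2 bases of any kind between, occurred on either strand in the RefSeq promoters of 12 of 19 matched list genes (63.2%), against 3.99% of all genes. The 150 bases before the start of Ifit3 (chr19:34583379-34583528, plus strand) are shown with the match in capitals, which reads as the pattern on the other strand.
Ifit3 promoter: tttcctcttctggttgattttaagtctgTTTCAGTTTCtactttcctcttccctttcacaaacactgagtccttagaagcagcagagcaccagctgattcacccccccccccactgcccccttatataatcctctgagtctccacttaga
Ifit3 and its list are shown because they separate 2D-1 from the other 3 libraries.

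Fitted changes of MHC class II genes lay below 0, with a wide spread. Crypt and villus enterocytes can carry these molecules. The list summed to 797, 1291, 420.1 and 706 CPM in the members. All 7 tested genes were below 0, with a median of -1.05, and 0 were called, with 5 at an unadjusted p under 0.05 (edgeR). Leaving out 2D-1 gave a median of -0.57 and leaving out 0D-2 one of -0.62, so these 2 libraries move it by more than 1.5 times. H2-Eb1, a beta chain, was at 62.5, 102, 36.6 and 44.6 CPM, a change of -1.05 (SE 0.22) with adjusted p = 0.16 (edgeR). H2-Aa, an alpha chain, was at 34.3, 81.6, 15.1 and 26.9 CPM. H2-Ab1 and H2-DMa had changes of -0.99 and -1.22. The class I list had a median of -0.01.

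**Figure D5:**
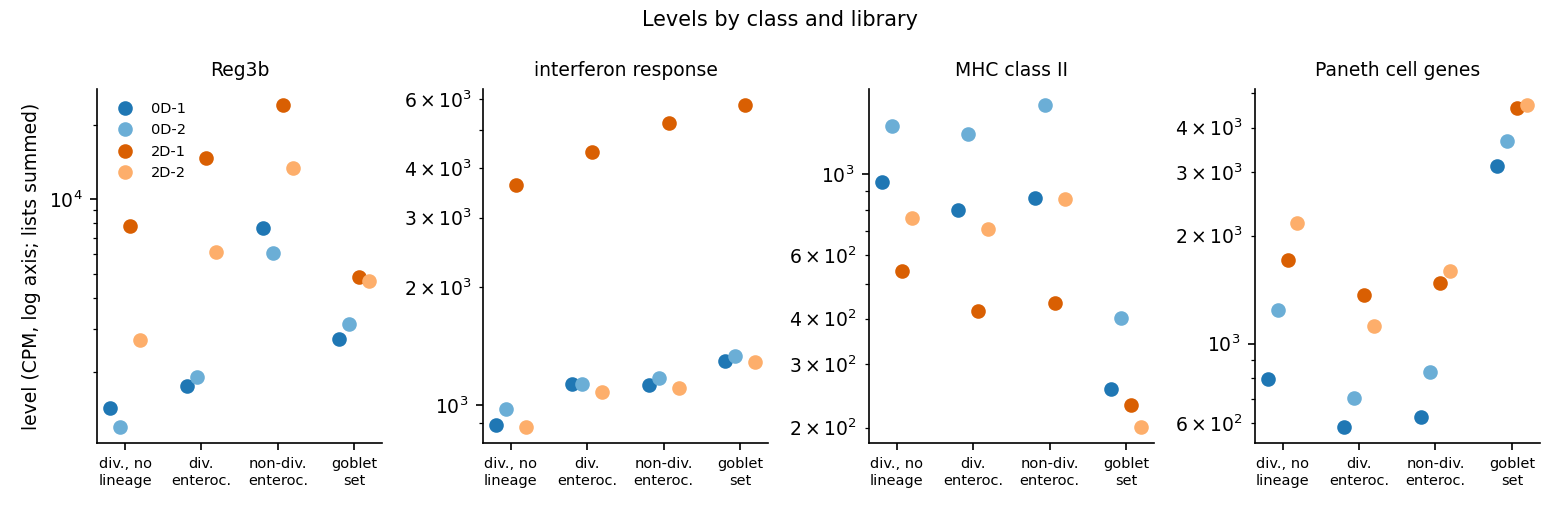
Level in CPM (vertical axes, log scale) of Reg3b and of the summed interferon response, MHC class II and Paneth cell lists in dividing cells without lineage markers, dividing enterocyte progenitors, non-dividing enterocytes and cells with only the goblet set (horizontal axis), with 1 point for each library. Interferon response genes are high in 2D-1 alone (4412 CPM in the progenitors), Paneth cell genes are at higher levels in both 2D libraries of the progenitors (1370 and 1117 CPM), and Reg3b was at 14673 and 6094 CPM there.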

How the data were processed

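The authors deposited unique molecular identifier (UMI) counts per gene and cell barcode for 4 libraries made with a 3′ single-cell kit (version 2, per the labels' protocols). The matrices were written by Cell Ranger 7.0.0, per the file headers, whereas Cell Ranger 2.1.1 and build mm10 stand in the submitters' processing notes. For the annotation and the counting of introns: not given in the sources used here. The members and gene lists were chosen with earlier results of these data known.

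Kept cells had 500 genes or more and no more than 20% mitochondrial UMIs (scanpy 1.11.5). They held 93090534 to 113758758 UMIs per library. Levels were ln(1 + UMIs per 10000) for the z-scores. Doublets were scored with Scrublet and not removed. UMIs were summed over the members of each library and tested with edgeR 4.0.16 (filterByExpr, TMM, quasi-likelihood test, Benjamini-Hochberg adjustment over all genes tested, threshold 0.05). The class-by-group term, with libraries as blocks, tested differences of change between cell classes. Shares were tested by two-sided exact permutation over libraries. On simulated data, 78.0% of 2-fold and 94.9% of 4-fold changes were recovered in the members' comparison (10109 genes), with 14 unchanged genes called. For the difference from the other dividing cells (11115 genes) the shares were 56.0% and 91.0%, with 5 such calls, and for that from non-dividing enterocytes (10457 genes) 46.0% and 90.9%, with 7. The simulation gave every gene the same spread and the libraries of a group the same expected levels. The real 2D libraries lay farther apart than the 0D libraries (root mean square log2 difference 0.464 against 0.279). These shares may therefore not hold for the real genes, and a gene not called may still have changed.

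Named genes were the 21 rule genes, the 10 smallest p in each direction without overlap between groups, and up to 4 genes of a list with the smallest p (up to 8 for enterocyte, regulator, S phase and mitosis lists). Each class difference added up to 5 per direction and every further gene called there. Alternatives were DESeq2 1.42.0, RLE size factors, no filter, a replicate block, leaving out each library, at most 10% mitochondrial UMIs, cuts of 0.75, z-scores within libraries and leaving out likely doublets or very deep members. Listed symbols without a row numbered 1 and were not analysed here.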

Additional observations from a re-analysis of the deposited data

Results flagged for a closer look

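The change from 0D to 2D differed between the dividing enterocyte progenitors and the dividing cells without lineage markers for 10 of 11136 genes (0.0898%, edgeR class-by-group term, Benjamini-Hochberg adjusted p under 0.05). The difference is given as the log2 change in the progenitors minus that in the other class. It was above 0 for the adaptor Tifa at 1.26, the lectin Reg3b at 0.57, the hormone genes Cck at 4.24 and Gip at 3.85, and Gm42418 at 0.27. It was below 0 for the metallothionein Mt2 at -2.08, the antiproliferative gene Btg2 at -0.84, the immediate early factor Jun at -0.75, and the goblet cell genes Spink4 at -0.53 and Fcgbp at -0.54. Without the cells that Scrublet marked by its automatic threshold, the last 2 differences turned and were called above 0. Spink4 was at 0.71 (adjusted p = 8.75e-08, edgeR) and Fcgbp at 0.94 (adjusted p = 6.37e-06, edgeR). That threshold left out 624, 367, 521 and 0 cells, so 2D-2, the highest in Spink4 at 952 CPM, was not filtered. Without the 8% highest scores, which took cells from every library, they were 0.38 and 0.41 and not called (edgeR adjusted p = 0.0544 and 0.304). Mt2 was at 40.2, 11.2, 2.72 and 7.95 CPM in the progenitors of the 4 libraries, so 0D-1 was far above the rest, and its difference was called with each of the 4 libraries left out (-2.49 to -1.65).

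Against the non-dividing enterocytes, the change differed for 11 of 10494 genes (0.105%). It was above 0 for Reg1 at 1.36, Reg3b at 1.00, the glutathione transferase Gsta1 at 1.08, the cytokine Il18 at 0.67, 2210407C18Rik at 0.62 and Gip at 5.21. It was below 0 for Klf4, a factor of differentiated epithelium, at -1.39, the guanylin gene Guca2a at -0.91, the hormone gene Ghrl at -4.19, the stress sensor Ern2 at -2.2 and the apolipoprotein Apoa4 at -2.07. Without Scrublet's automatic calls 4 of these were no longer called, and Ghrl was at -0.65, Ern2 at -0.54, Klf4 at -0.13 and Guca2a, turned, at 0.37 (adjusted p = 0.498, edgeR). The 4 were also not called without the 8% highest scores, and without 2D-1 the Ghrl difference was -1.21. Of these 11, only Reg1 was called in all 8 processing alternatives. Apoa4 was at 119.6, 118, 155 and 613 CPM in the non-dividing enterocytes, with 2D-2 the highest.

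Most Gip and Cck transcripts were in single cells. Of 555 Gip transcripts in the progenitors of 2D-1, 521 were in 1 cell, and of 205 Cck transcripts in 2D-2, 197 were in 1 cell.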

How the results depend on the processing

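With z-scores made within each library, the 2D minus 0D difference in the progenitors' share turned from -1.13 to 0.00633 percentage points of all cells, to 1.79 of cycling-set cells and to 1.18 of enterocyte-set cells. After thinning it was -0.610 points of all cells, and leaving out 1 library gave -1.63 to -0.622. The 17 called genes became 28 with DESeq2, 5 with no filter, 43 with cuts of 0.75, 9 with z-scores within libraries and 30 without very deep members. Leaving out 1 library gave 0 (without 0D-1 or 0D-2) to 435 calls (without 2D-2; 119 without 2D-1). A replicate block gave 66 calls. The numbers are not taken to pair the libraries, since the deviations of 0D-1 and 2D-1 had a correlation over genes of -0.0845. All 17 genes, of which 15 lie outside the rule, kept their sign in every one of these fits.

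Differences from the other dividing cells numbered 3 with cuts of 0.75, 0 with z-scores within libraries, 25 without Scrublet's calls and 11 to 42 with a library left out. From the non-dividing enterocytes they numbered 29 with no filter, 19 at 10% mitochondrial UMIs, 4 with z-scores within libraries, 51 without Scrublet's calls, 21 without very deep members and 4 to 120 with a library left out. Among named genes, Mep1b turned to -0.00466 with z-scores within libraries and Slc51b ran from -0.0751 (without 2D-1) to 0.899 with a library left out. Without Scrublet's calls, and without the 8% highest scores, the differences turned to 0.71 and 0.38 for Spink4, 0.94 and 0.41 for Fcgbp, and 0.37 and 0.36 for Guca2a. Of these turned values, only the first for Spink4 and for Fcgbp passed the threshold (edgeR adjusted p = 8.75e-08 and 6.37e-06). In that setting no cell of 2D-2 was left out, so the libraries were filtered unequally. Where a setting leaves 1 library in a group, that library is assumed to vary like the others. The cause of these shifts was not tested. The 75 members of 2D-2 held 1635748 transcripts, the fewest, which limits low genes there.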

Other observations

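Fatty acid oxidation and ketogenesis genes of the progenitors had fitted changes mostly below 0, with 2 of 15 tested genes above 0 and a median of -0.20. In 8 of the 15 both 2D libraries were below both 0D libraries, against 20.4% of all genes, and none was called while 4 had an unadjusted p under 0.05 (edgeR). Cpt1a, which admits long-chain fatty acids to mitochondria, was at 115, 103, 83.2 and 70.3 CPM in the 4 libraries, and Plin2, a lipid droplet coat protein, at 71.1, 69.01, 52.2 and 54.4 CPM. Acadl, a long-chain acyl-CoA dehydrogenase, went the other way at 151, 140.2, 328 and 166 CPM, with 2D-1 the highest. Of 13 mitochondrially encoded genes, 3 were above 0 and in 9 both 2D libraries were below both 0D libraries, with a median of -0.13. Cholesterol synthesis had a median of -0.16 over 15 genes, which was 0.03 without 0D-2.

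Fkbp5, a glucocorticoid-induced chaperone partner, was at 18.4, 12.6, 40.6 and 32.4 CPM, a log2 change of 1.27 (SE 0.22) with adjusted p = 0.0828 (edgeR), and its groups did not overlap. Of the 11 tested glucocorticoid response genes, Fkbp5 included, 3 were above 0, and the list median was -0.10. Circadian clock genes had a median of 0.27 over 10 tested genes, which was -0.02 without 2D-1. The somatostatin gene Sst was also seen mainly in 1 cell, which held 145 of the 151 transcripts in the progenitors of 2D-1.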
